A study of Mus musculus with 18 samples.

Results

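The genes described are 45 DNA replication and nucleotide supply genes of the mouse. They were chosen by name for their textbook role, with earlier results of these data known. A probe set counted as a member if the array's annotation gave it exactly 1 gene symbol and that symbol was on the list. Of the 45 genes, 44 had such a probe set, 94 probe sets in all out of 45101 on the array, and Chaf1a had none. The 44 stand among 18193 genes with a probe set, of which 12246 were tested. Of the 44, 43 were tested and Tyms was not, because none of its 4 probe sets exceeded the median of any array. The 43 comprised 6 genes of origin licensing, 6 of the replicative helicase, 6 of helicase activation, 8 of the DNA polymerases and primase, 6 of the sliding clamp and its loader, 5 of single-strand binding and flap processing, 5 of nucleotide supply and uracil removal, and Chaf1b of chromatin assembly. All 43 lay above the array median on every 1 of the 12 arrays with oocytes, and 10 of them were at or below it on at least 1 of the 6 oocyte-free arrays. Differences are compressed at such low signal, so folds that rest on these values are likely too small, and their order is not exact. Tests compared each gene with itself, and levels of different genes are not compared. Sizes of change are given gene by gene and were not compared between genes by a test.

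Before a cell copies its DNA, the origin recognition complex, CDC6 and CDT1 load the MCM helicase onto origins, and geminin restrains reloading. CDC45 and the GINS complex then turn the loaded ring into an active helicase. Primase and the polymerases synthesise new strands behind it, held to the template by the PCNA clamp, while ribonucleotide reductase, thymidine kinase and related enzymes supply deoxynucleotides. Many of these genes are transcribed around entry into S phase by E2F factors. Cumulus cells are granulosa cells packed around the oocyte of an antral follicle, and they divide while the follicle grows.

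The study asked how the oocyte and estrogen act together on cumulus cell transcripts in culture. RNA of cumulus cells from antral follicles was measured on 18 arrays, in 6 groups of 3. Intact cumulus-oocyte complexes (COC), complexes whose oocyte had been taken out (OOX) and OOX complexes cultured with oocytes were each grown without and with estrogen (E2 in the labels). They are called intact, oocyte-free and coculture. Only the cumulus cells were described as the source of RNA, although oocytes were present during culture in the intact and coculture groups. The labels used here give neither a strain, an age, a dose nor a culture time, and they do not say whether the 3 samples of a group were separate cultures or animals. Every p-value therefore measures how these samples vary, and that variation may be technical. RNA was amplified in repeated rounds before labelling.

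One array conflicts with its own labels. The array titled "5 E2 OOX" (oocyte-free with estrogen, replicate 1) has a source name and a treatment without estrogen, and the title was followed. Its mean correlation over tested genes was 0.975 with the other oocyte-free arrays with estrogen and 0.937 with those without. Of granulosa and cumulus markers called higher with estrogen in intact complexes, Slc38a3 stood at 10.04 and Npr2 at 10.39 on this array. The other oocyte-free arrays with estrogen had 9.55 and 9.92 for Slc38a3, and 9.97 and 10.81 for Npr2. Those without had 6.90, 6.95 and 6.53, and 8.97, 8.90 and 8.63. Gata4, at 8.26, lay within the range of both groups. Which label is right was not tested. Of the arrays without estrogen, oocyte-free replicate 3 differed most from its group: its interquartile range was 2.54, and it had a mean correlation of 0.943 with its group, against 0.964 and 0.965 (replicates 1 and 2). The array names fall into 3 series, whose meaning the labels do not give. No series held both oocyte-free and intact arrays without estrogen, so series and oocyte removal cannot be told apart there. All 12 granulosa and cumulus markers with a probe set were tested. Of 20 oocyte markers, 12 never exceeded an array median, among them Bmp15, Zp1 and Zp2, and Gdf9 did so on all 18 arrays, at 6.61 to 7.19.

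Promoter sequence was available for 37 of the 45 genes, as 300 bases per start site, from 250 before to 50 after it (RefSeq, build GRCm38.p6). The words TTTCCCGC, TTTCGCGC, TTTGCCGC and TTTGGCGC, the letters of the E2F consensus, were searched on both strands, with overlapping matches counted. At least 1 word lay in 13 of the 37 genes (35.1%), against 4.74% of the 9897 tested genes with a promoter and 2.6% of all 27025 genes. In the upstream 250 bases alone the shares were 21.6% and 3.93% of tested genes. The windows printed here hold every upstream word of 6 genes, with 30 bases on either side where the upstream sequence reaches that far. They are shown because genes with such words include members that fell steeply on oocyte removal and the 1 tested member that was not called. Gins3 and Rfc3 also held upstream words and are not printed. They changed by -0.81 and -1.65 on removal without estrogen. Whether the words go with the size of the fall was not tested. Each is read 5′ to 3′ on the gene's strand, and capitals mark the words, with a longer run of capitals marking overlapping words.

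Cdc6, chr11:98907983-98908050, plus strand: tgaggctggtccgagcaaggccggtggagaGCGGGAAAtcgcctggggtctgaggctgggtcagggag
Mcm5, chr8:75109326-75109397, plus strand: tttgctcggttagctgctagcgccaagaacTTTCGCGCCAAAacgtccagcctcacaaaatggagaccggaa
Mcm6, chr1:128359715-128359845, minus strand: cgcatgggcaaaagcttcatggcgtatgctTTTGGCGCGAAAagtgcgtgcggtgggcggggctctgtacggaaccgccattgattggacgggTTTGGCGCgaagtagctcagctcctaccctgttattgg
Mcm7, chr5:138172011-138172078, minus strand: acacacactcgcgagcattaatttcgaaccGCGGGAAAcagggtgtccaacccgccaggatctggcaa
Pola1, chrX:93632256-93632323, minus strand: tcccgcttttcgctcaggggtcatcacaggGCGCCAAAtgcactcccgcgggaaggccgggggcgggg
Orc1, chr4:108579397-108579453, plus strand: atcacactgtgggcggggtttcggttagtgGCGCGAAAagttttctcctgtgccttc

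The word of Cdc6 lay 138 to 131 bases before the start and that of Orc1 27 to 20 bases before it. Mcm7 has a second listed start whose 300 bases hold none of the words. Tk1, Rrm2, Prim1, Pcna and Rfc4 held none in the listed 300 bases, and each of these 5 genes fell on oocyte removal. A match is a description of the letters and was not tested as a binding site. The word CCAAT lay upstream in 62.2% of the 37 genes and in 39.7% of tested genes.

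Nearly all of the tested genes were lower after the oocyte was taken out. Without estrogen, 42 of the 43 tested genes fell and none of them rose, with adjusted p-values from 7.84e-09 to 0.0437 among the called genes (limma, Benjamini-Hochberg over all tested genes). Of all tested genes, 20.7% were called lower. The median change of the 43 was -1.65 on the log2 scale, against 0.01 over all tested genes. For 41 of the 43 the 3 oocyte-free arrays lay wholly below the 3 intact arrays, as they did for 24.7% of all tested genes. Fewer dividing cells and less of these transcripts per cell cannot be told apart in RNA of whole samples. The heatmap of all 43 genes shows the blocks of oocyte-free arrays against the other 4 groups.

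**Figure D1:**
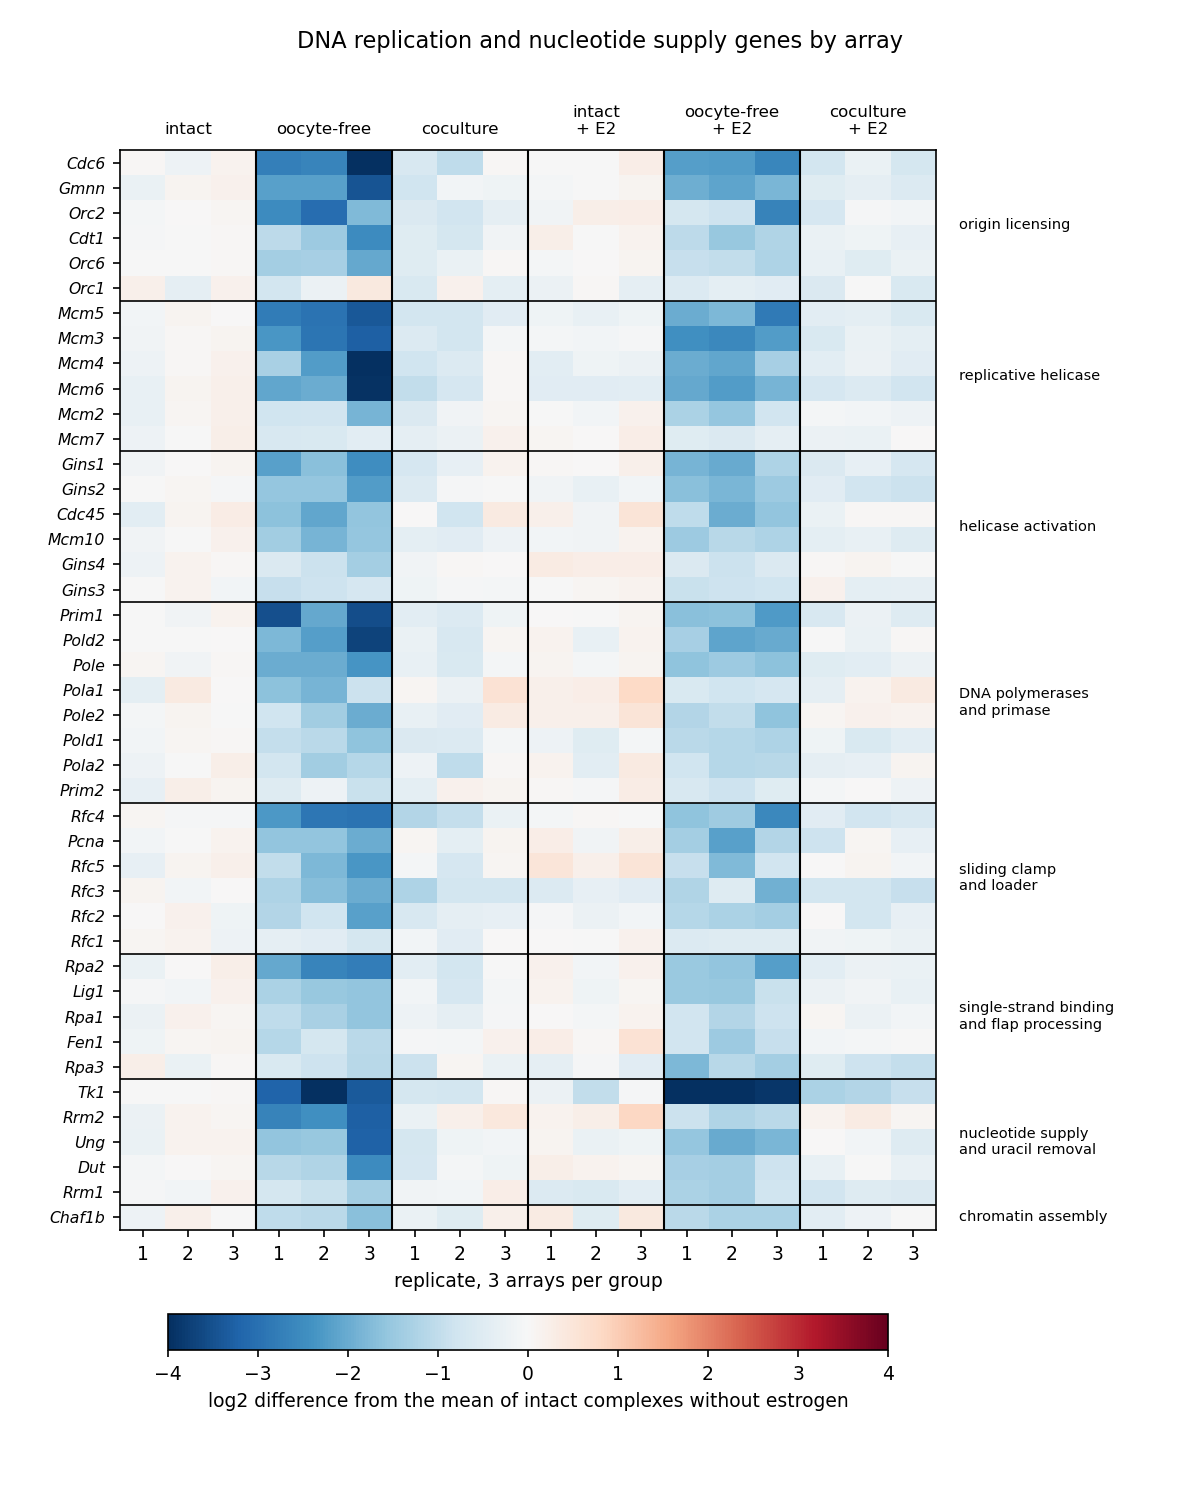
Colour gives the log2 difference of each array (columns, 3 replicates per group) from the mean of intact complexes without estrogen, for the 43 tested genes (rows, ordered by role and by change); values beyond 4 are drawn at the end of the scale. The 6 oocyte-free arrays are the blue columns, with Orc1 the 1 gene not called, and coculture arrays lie close to the intact arrays.

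Among origin licensing genes, Cdc6, which helps load the helicase, was lower on all oocyte-free arrays. Its log2 values were 7.96, 7.72 and 8.07 on the intact arrays and 5.19, 5.29 and 3.63 on the oocyte-free arrays. No oocyte-free array came near an intact one, replicate 3 was the lowest, and all 3 lay below the median of their array. The fitted fall was 9.28-fold, or -3.21 ± 0.336 (SE, n = 3 per group; adjusted p = 8.38e-07). Gmnn, which encodes the licensing inhibitor geminin, fell 6.08-fold and Cdt1, the licensing factor that geminin binds, 3.19-fold. The inhibitor and its target thus both moved down. The origin recognition subunits differed from each other. Orc6 fell by 1.57 ± 0.184 (SE; n = 3 per group, limma adjusted p = 3.38e-06). Orc2 fell by 2.44 in its brightest probe set, while its other 2 probe sets gave -0.34 and -0.56 and were not called.

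Orc1, the largest subunit of the origin recognition complex, was the exception. Its log2 values were 6.92, 6.38 and 6.89 on intact arrays and 6.01, 6.49 and 7.12 on oocyte-free arrays. The groups overlapped, and oocyte-free replicate 3 was the highest of the 6. The change was -0.19 ± 0.258 (SE, n = 3 per group; adjusted p = 0.602, limma). A dimmer probe set of Orc1, which exceeded the array median on 2 arrays and was not tested, read 5.89, 5.55 and 6.00 on intact arrays and 4.66, 5.04 and 5.09 on oocyte-free arrays. In that probe set the groups did not overlap, so the 2 probe sets of the gene disagree.

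The 6 subunits of the MCM helicase all fell. Mcm5 stood at 11.27, 11.48 and 11.39 on intact arrays and at 8.57, 8.43 and 8.00 on oocyte-free arrays. The 3 replicates of each group lay close together and far from the other group. The fall was 8.26-fold, or -3.05 ± 0.213 (SE, n = 3 per group; limma adjusted p = 7.84e-09), the smallest adjusted p of the 43. Mcm3 fell 7.16-fold, and Mcm4 and Mcm6 6.35-fold each. Oocyte-free replicate 3 was far lower than its group in Mcm4 (5.62 against 8.79 and 7.86) and in Mcm6 (6.55 against 8.41 and 8.52). Without that array the falls were 3.40-fold for Mcm4 and 4.08-fold for Mcm6, both still called (limma adjusted p = 0.000104 and 3.99e-06). Without replicate 1, the highest in Mcm4, the fall of Mcm4 was 10.2-fold.

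The smallest change of the helicase was that of Mcm7. Its values were 11.19, 11.36 and 11.62 on intact arrays and 10.76, 10.77 and 10.96 on oocyte-free arrays. The groups did not overlap, although only narrowly, and the change was -0.56 ± 0.157 (SE, n = 3 per group; limma adjusted p = 0.0088). The other 3 probe sets of Mcm7 gave -0.72, -1.12 and -1.78, each called. Mcm2 likewise gave -1.13 in its brightest and -2.34 in its other probe set. The order of subunits by size of change therefore depends on the probe set taken.

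All 6 genes that turn the helicase on fell. Gins1, a GINS subunit, stood at 8.93, 9.09 and 9.19 in intact and 6.90, 7.39 and 6.59 in oocyte-free complexes. That gap was 4.32-fold, or -2.11 ± 0.232 (SE, n = 3 per group; limma adjusted p = 1.54e-06). Gins2 fell 3.42-fold, Gins4 1.91-fold and Gins3 1.75-fold, and these sizes were not compared by a test. A second Gins2 probe set read 9.25, 9.25 and 9.30 in intact and 7.34, 7.23 and 5.96 in oocyte-free complexes. A dimmer Gins3 probe set read 5.20, 5.40 and 5.81 against 4.59, 5.37 and 5.24, with overlap. Mcm10, which joins the helicase to the polymerase, fell 3.05-fold. Cdc45 fell 3.40-fold in its brightest probe set, and its other probe set was at -0.38 and not called.

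The 8 polymerase and primase genes fell too, with a median of -1.42. Prim1, the catalytic primase subunit, had 8.87, 8.74 and 9.03 in intact and 5.36, 6.84 and 5.32 in oocyte-free complexes. Replicate 2 was the highest of the oocyte-free arrays and still well below every intact array. Prim1 fell 8.22-fold (-3.04 ± 0.294, SE, n = 3 per group; limma adjusted p = 3.28e-07). Prim2, the regulatory primase subunit, had 6.88, 7.45 and 7.31 against 6.71, 7.02 and 6.33, groups that overlapped. Its change was -0.53 ± 0.198 (SE, n = 3 per group; limma adjusted p = 0.0437), the weakest call of the 42. Of the catalytic subunits, Pole fell 4.31-fold, Pola1 2.74-fold and Pold1 2.31-fold. Pold2, an accessory subunit of polymerase delta, fell 5.92-fold, with oocyte-free replicate 3 at 6.60 against 8.49 and 8.10.

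Pcna, the sliding clamp, fell 3.28-fold, from 10.59, 10.68 and 10.85 to 9.13, 9.14 and 8.71. The 5 subunits of its loader spread widely around it. Rfc4 had 8.52, 8.39 and 8.38 in intact and 6.14, 5.53 and 5.49 in oocyte-free complexes and fell 6.54-fold (-2.71 ± 0.264, SE, n = 3 per group; limma adjusted p = 3.65e-07). Rfc1, the large loader subunit, had 9.88, 9.94 and 9.61 against 9.44, 9.37 and 9.11. Its groups were close but separate, and it fell 1.42-fold (limma adjusted p = 0.0109). Its other probe sets gave -1.85, called, and -0.09, not called.

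In single-strand binding, Rpa2 changed most, from 10.29, 10.57 and 10.77 to 8.49, 7.91 and 7.79. It fell 5.58-fold (-2.48 ± 0.225, SE, n = 3 per group; limma adjusted p = 1.59e-07). Rpa3, another subunit of the same complex, had 9.81, 9.33 and 9.63 against 8.98, 8.76 and 8.49, and it fell 1.80-fold. Fen1, the flap nuclease, fell 1.97-fold and Lig1, which seals the nicks, 2.73-fold. A second probe set of Fen1 gave -2.29. Chaf1b, a chromatin assembly subunit, changed by -1.26 ± 0.237 (SE, n = 3 per group; limma adjusted p = 0.000418).

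The nucleotide supply genes fell by very different amounts. Tk1, the thymidine salvage kinase, had 8.74, 8.75 and 8.80 in intact and 5.57, 4.07 and 5.41 in oocyte-free complexes. Of the oocyte-free arrays, 2 were below their array median. The fitted fall was 13.4-fold (-3.75 ± 0.385, SE, n = 3 per group; limma adjusted p = 6.97e-07). Intact arrays lay close together, and oocyte-free arrays spread over more than 1 log2 unit. The subunits of ribonucleotide reductase, which makes deoxynucleotides, moved unequally. Rrm2, the small subunit that cells make in S phase, had 10.14, 10.50 and 10.45 against 7.69, 7.92 and 7.10, a 6.93-fold fall (limma adjusted p = 3.83e-08). Rrm1, the large subunit, had 10.25, 10.16 and 10.44 against 9.59, 9.38 and 8.93, a 1.98-fold fall (limma adjusted p = 0.000401).

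Enzymes that keep uracil out of DNA were lower as well. Ung, the uracil glycosylase, fell 4.28-fold and Dut, which breaks down dUTP, 3.03-fold. Tyms, the thymidylate synthase gene, lay between 3.52 and 5.19 on all 18 arrays in its brightest probe set, below the median of each array, so no statement on its change is made. The plot of single arrays shows 8 of these genes in all 6 groups.

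**Figure D2:**
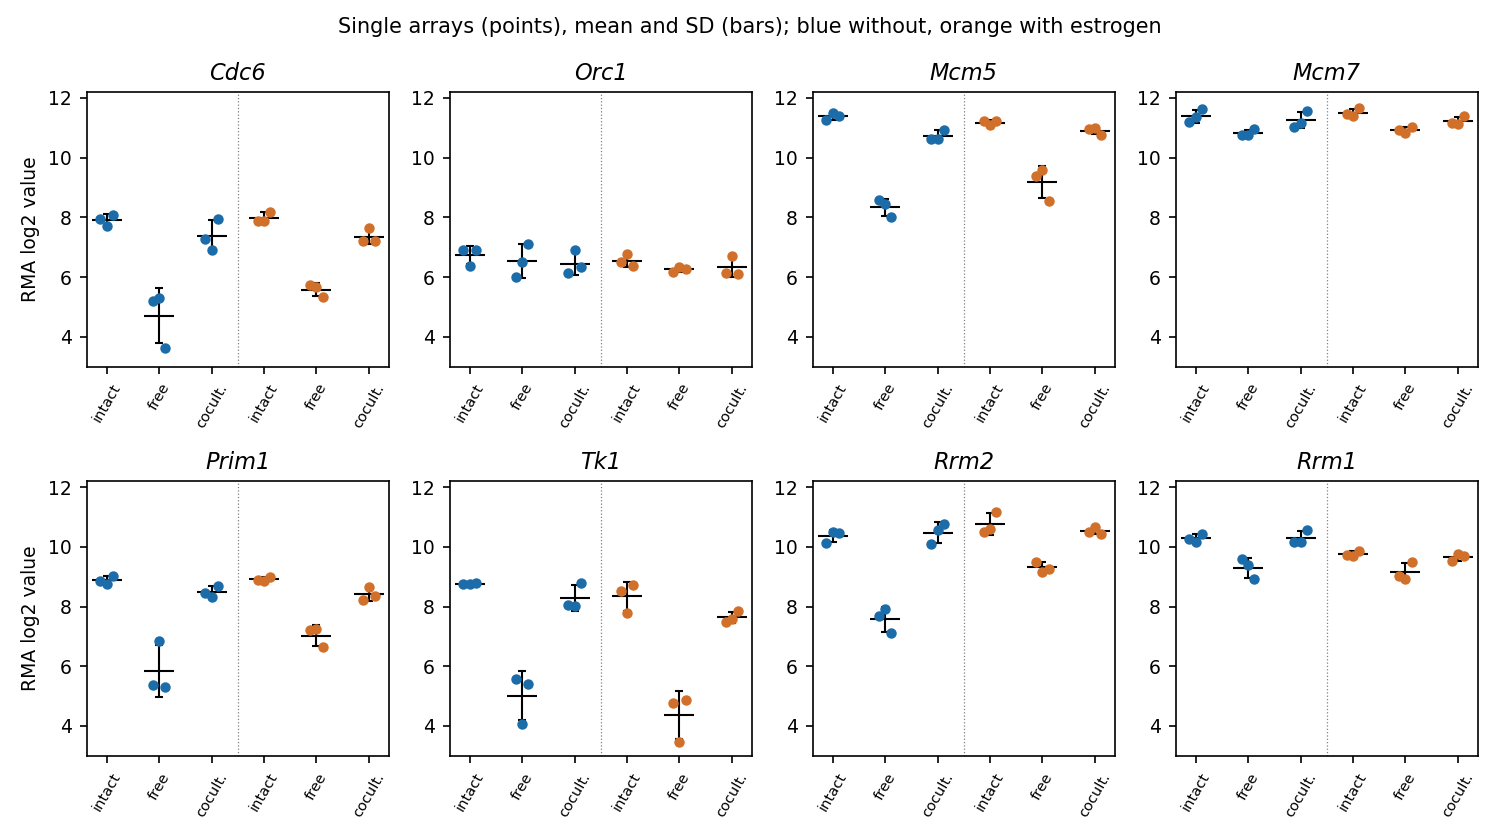
Points are single arrays on the log2 scale, 3 per group, for Cdc6, Orc1, Mcm5, Mcm7, Prim1, Tk1, Rrm2 and Rrm1, with the mean and SD as bars; blue is without and orange with estrogen, and free and cocult. stand for oocyte-free and coculture. Oocyte-free arrays lie lowest of their medium in each panel but that of Orc1, where the groups overlap without estrogen, and Rrm2 is higher in oocyte-free complexes with estrogen (mean 9.31) than without (mean 7.57).

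Oocyte removal in the presence of estrogen gave the same count. Of the 43 genes, 42 fell and 0 rose, against 17.3% of tested genes called lower, with a median of -1.38 (-0.05 over all tested genes). The arrays did not overlap for 42 of the 43 (24.8% of tested genes lay wholly lower), the exception being Rfc3. In the other probe set of Rfc3 they were apart, at 7.33, 6.65 and 6.79 against 6.17, 5.56 and 5.48. Orc1 was again the gene not called, at -0.29 ± 0.258 (SE, n = 3 per group; limma adjusted p = 0.443). Tk1 showed 8.52, 7.79 and 8.73 in intact and 4.77, 3.45 and 4.88 in oocyte-free complexes, a 15.8-fold fall. Mcm3 fell 5.09-fold and Cdc6 5.35-fold. Orc2 fell 2.87-fold, and 1.86-fold without oocyte-free replicate 3 (limma adjusted p = 0.0264). In its other probe sets the groups overlapped, at 6.55, 6.51 and 6.86 against 6.51, 6.68 and 6.37, and at 6.85, 6.63 and 6.76 against 6.49, 6.84 and 6.13. Within array series 1, which held 3 intact and 2 oocyte-free arrays, all 43 changes lay below 0 with a median of -1.43.

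Adding oocytes back raised most of these genes again. Without estrogen, 39 of the 43 rose and 0 fell from oocyte-free complexes to cocultures, where 19.8% of tested genes were called higher, with a median of 1.34 (0.02 over all tested genes). For 37 of the 43 the arrays did not overlap (22.2% of tested genes lay wholly higher). This comparison uses the same oocyte-free arrays as oocyte removal, so high or low values there move both. Cdc6 reached 7.29, 6.91 and 7.95 in cocultures, 6.41-fold above oocyte-free complexes (limma adjusted p = 8.88e-06). Mcm5 reached 10.63, 10.64 and 10.94, a 5.29-fold rise, and Prim1 8.46, 8.32 and 8.70, a 6.29-fold rise. Mcm4 rose 4.69-fold and Mcm6 4.38-fold. Without oocyte-free replicate 3 the rises were 2.51-fold and 2.81-fold, both still called, and without replicate 1 that of Mcm4 was 7.53-fold. No coculture array of Cdc6, Mcm5 or Prim1 fell into the oocyte-free range.

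Tk1 reached 8.05, 8.03 and 8.80 in cocultures and rose 9.69-fold (limma adjusted p = 4.32e-06). Rrm2 reached 10.10, 10.57 and 10.77 and rose 7.52-fold (limma adjusted p = 2.9e-08), the smallest adjusted p in this comparison among the 43. Rfc4 rose 3.76-fold, Rpa2 4.26-fold and Gins1 3.52-fold, and Chaf1b rose 2.11-fold. The genes not called were Orc1 at -0.09 (adjusted p = 0.829), Prim2 at 0.50 (0.0634), Rpa3 at 0.49 (0.118) and Rfc1 at 0.33 (0.0935), all by limma with n = 3 per group. Within array series 2, with 1 array on each side and no test, 42 of 43 values were higher in the coculture array, with a median of 1.67. The oocyte-free array of that series was replicate 3, which differed most from its group among the arrays without estrogen. It also had the lowest median of the 43 genes among the oocyte-free arrays without estrogen. The size of the median within series 2 therefore rests on that array.

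With estrogen, 38 of the 43 rose on adding oocytes and 0 fell, against 14.2% of tested genes called higher, with a median of 1.06 (0.03 over all tested genes). The arrays did not overlap for 41 of 43 (21.1% of tested genes lay wholly higher). Tk1 reached 7.49, 7.60 and 7.85 and rose 9.71-fold, and Mcm3 rose 4.03-fold. Orc2 rose 2.18-fold, but without oocyte-free replicate 3 it was 1.41-fold higher and not called (limma adjusted p = 0.252). In the other probe sets of Orc2 the groups overlapped. Those not called were Orc1, Mcm7 at 0.30, Pola1 at 0.74, Rfc1 at 0.33 and Rfc3 at 0.43 (limma adjusted p from 0.0596 to 0.899, n = 3 per group). The other Rfc3 probe set read 6.17, 5.56 and 5.48 in oocyte-free complexes and 6.47, 6.58 and 7.02 in cocultures, without overlap. In series 1, with 3 coculture and 2 oocyte-free arrays, all 43 values were above 0, with a median of 1.06. The plot of changes by gene sets both comparisons side by side.

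**Figure D3:**
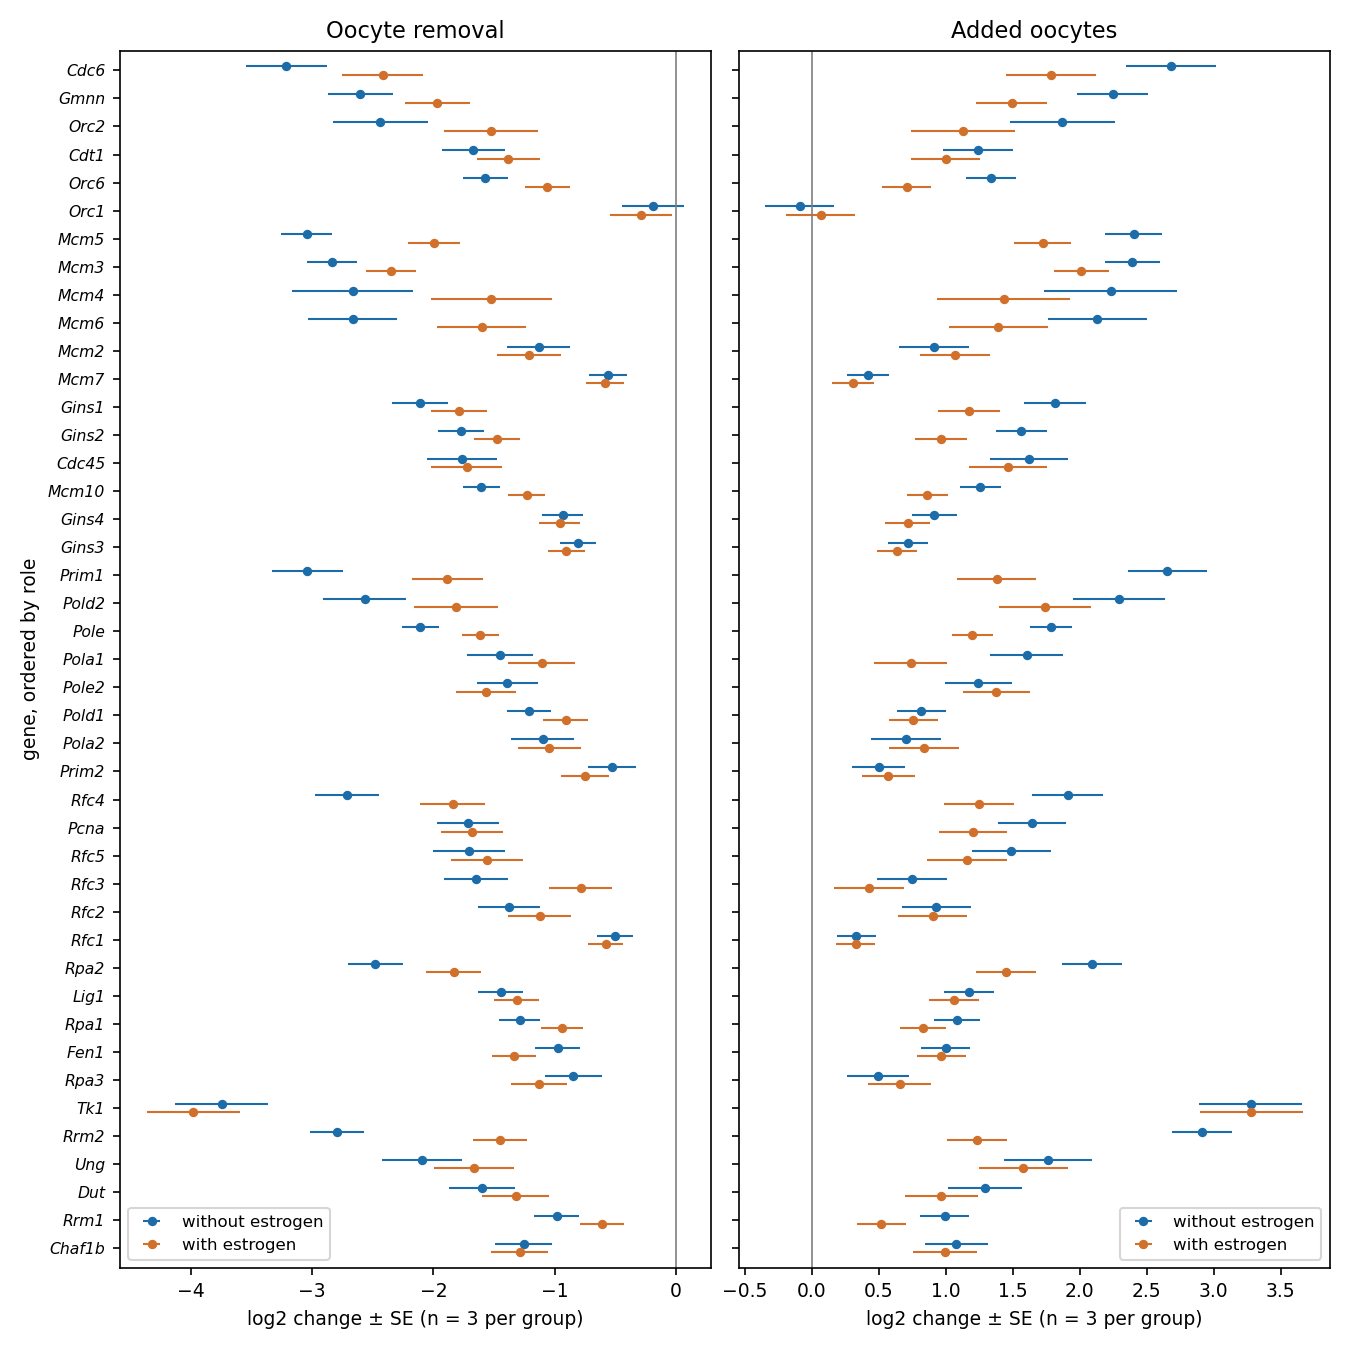
Dots are log2 changes of the 43 genes with the SE of the fit (n = 3 arrays per group), on oocyte removal (left, oocyte-free minus intact) and on adding oocytes (right, coculture minus oocyte-free), blue without and orange with estrogen. All values on the left lie below 0, from -3.98 (Tk1 with estrogen) to -0.19 (Orc1 without), and those on the right reach 3.28 (Tk1) with Orc1 near 0; the panels share the oocyte-free arrays.

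In cocultures most of these genes had values slightly below those of intact complexes, and no difference was called. Without estrogen, 0 of the 43 were called between cocultures and intact complexes by limma, with 6 at an unadjusted p under 0.05 (5.98% of all tested genes had such a p), and 0.00817% of tested genes were called. The median was -0.29 (0.03 over all tested genes), and 39 of the 43 lay below 0. Rfc3 was the furthest, with 6.51, 7.02 and 7.03 in cocultures against 7.87, 7.63 and 7.76 in intact complexes (-0.90 ± 0.263, SE, n = 3 per group; limma adjusted p = 0.504). Rfc4 differed by -0.80 and Mcm5 by -0.64, and for each of these 3 the arrays did not overlap. In the other Rfc3 probe set they did, at 6.71, 6.42 and 6.98 against 6.81, 7.28 and 7.37. So they did in a second Mcm5 probe set, at 7.90, 7.01 and 8.18 against 7.78, 8.41 and 8.04. The other Rfc4 probe set had no overlap, at 7.47, 7.68 and 8.17 against 8.25, 8.19 and 8.20. The coculture arrays lay wholly below the intact arrays for 8 of the 43, and for 4.86% of all tested genes. Coculture arrays were uneven: the median difference of the 43 genes from the intact mean was -0.42 on replicate 1, -0.46 on replicate 2 and 0.03 on replicate 3.

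With estrogen, all 43 values lay below 0, with a median of -0.30 (-0.01 over all tested genes). Again 0 were called by limma, 5 had an unadjusted p under 0.05 (2.82% of all tested genes did), and 0% of tested genes were called. Tk1 was the furthest at -0.70, and Cdc6 stood at -0.64 and Gins1 at -0.62. The coculture arrays lay wholly below the intact arrays for 23 of the 43, and did so for 5.59% of tested genes. The 3 coculture arrays gave like medians here, of -0.37, -0.24 and -0.32 against intact complexes without estrogen.

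No effect of estrogen on these genes was called where oocytes were present. In intact complexes 0 of the 43 were called (5.78% of tested genes were), with a median of 0.02 and 1 gene at an unadjusted p under 0.05 by limma, where 18.7% of all tested genes had such a p. That gene was Rrm1, with 10.25, 10.16 and 10.44 without and 9.73, 9.68 and 9.86 with estrogen. Its arrays did not overlap, and it changed by -0.53 ± 0.184 (SE, n = 3 per group; limma adjusted p = 0.114). In cocultures 0 of the 43 were called (4.65% of tested genes were), with a median of -0.01 and 2 genes, Rrm1 and Gins2, at an unadjusted p under 0.05 (16.1% of all tested genes). Rrm1 had 10.15, 10.16 and 10.56 without and 9.53, 9.77 and 9.69 with estrogen (-0.63 ± 0.184, SE, n = 3 per group; limma adjusted p = 0.0647). In its brightest probe set Rrm1 thus stood lower with estrogen in both settings, without passing the threshold in either. In its other, much dimmer probe sets the arrays with and without estrogen overlapped in both settings. The lower level of Rrm1 with estrogen therefore rests on 1 probe set.

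In oocyte-free complexes estrogen raised 4 of the 43 genes and lowered 0, against 6.03% of tested genes called higher, with a median of 0.35 (0.00 over all tested genes). An unadjusted p under 0.05 by limma was found for 15 of the 43 and for 26.6% of all tested genes. The counts are not far above these shares, so they are not read as a trait of the 43. Rrm2 had 7.69, 7.92 and 7.10 without and 9.50, 9.16 and 9.27 with estrogen. The lowest array with estrogen was above the highest without it by more than 1 log2 unit. Rrm2 rose by 1.74 ± 0.224 (SE, n = 3 per group; limma adjusted p = 9.01e-05). A second Rrm2 probe set went from 5.24, 5.33 and 3.75 to 6.58, 6.29 and 7.04, without overlap. The dimmest went from 5.32, 4.81 and 5.66 to 6.33, 5.43 and 5.52, with overlap, so the size of the rise depends on the probe set. Prim1 rose by 1.19 ± 0.294, from 5.36, 6.84 and 5.32 to 7.22, 7.24 and 6.63, and its groups overlapped. Mcm5 rose by 0.85 ± 0.213, from 8.57, 8.43 and 8.00 to 9.39, 9.59 and 8.56, also with overlap. Pole rose by 0.53 ± 0.155, from 5.93, 5.91 and 5.54 to 6.28, 6.45 and 6.25, without overlap (limma adjusted p = 0.0158, 0.0178 and 0.038 for these 3). A second Prim1 probe set went from 5.50, 5.44 and 4.73 to 6.24, 6.39 and 5.68, without overlap. In Mcm5 a second probe set read 6.20, 5.59 and 5.17 without and 6.14, 5.32 and 6.14 with estrogen. A dimmer one read 4.59, 4.71 and 5.06 against 4.45, 4.49 and 4.98, so the probe sets of Mcm5 disagree.

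The 4 rises called with estrogen rested on few arrays. Without oocyte-free replicate 3 the median of the 43 was 0.05 and 3 genes were called, and without the array of conflicting labels 1 was called. With that array placed in the group without estrogen, as its source name has it, 0 were called. The only series with both groups, series 3, held 1 array with and 2 without estrogen. There Rrm2 differed by 1.47, Prim1 by 0.53, Pole by 0.33 and Mcm5 by 0.06, with a median of 0.10 over the 43 and no test. With the array series as a term, 1 gene was called.

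**Figure D4:**
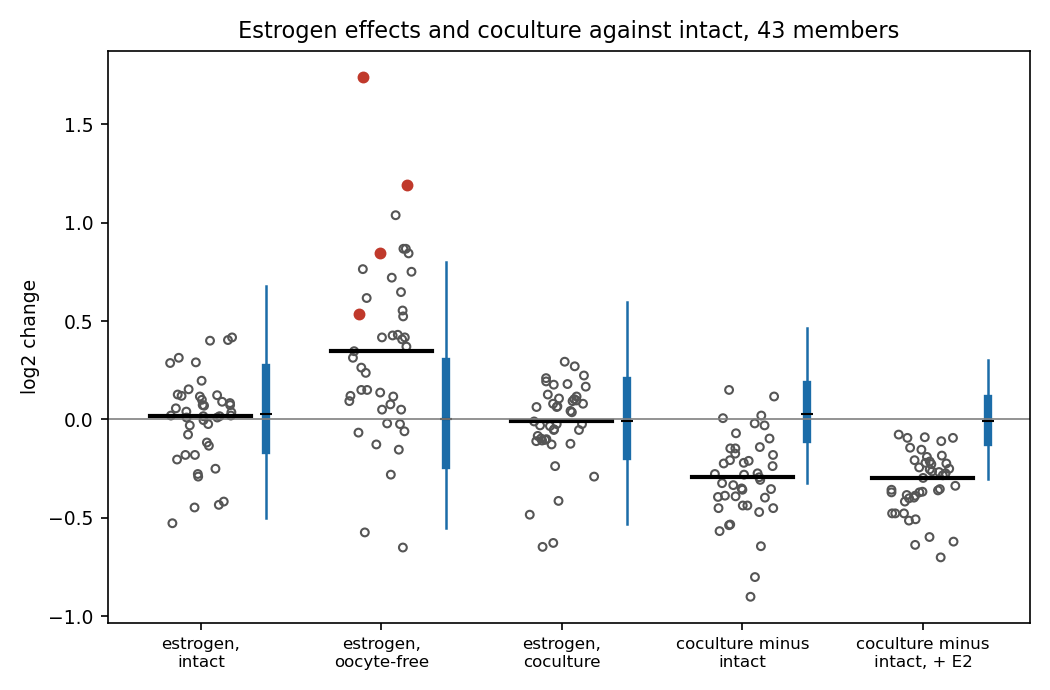
Circles are log2 changes of the 43 genes for estrogen in intact complexes, oocyte-free complexes and cocultures, and for coculture minus intact without and with estrogen; red fill marks called genes, black lines the medians, and blue bars the middle 50% (thick) and 90% (thin) of all tested genes. Called genes occur only in oocyte-free complexes (Rrm2, Prim1, Mcm5 and Pole), and the coculture values with estrogen all lie below 0.

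Whether estrogen changed the response to the oocyte was tested as an interaction. On oocyte removal 1 of the 43 was called, Rrm2, where 1.79% of tested genes were called higher. Its fall was smaller with estrogen (-1.45 ± 0.224) than without (-2.79 ± 0.224), a difference of 1.34 ± 0.317 (SE, n = 3 per group; limma adjusted p = 0.0241). On adding oocytes 1 was called, again Rrm2, where 1.89% of tested genes were called lower. Its rise was 1.23 with and 2.91 without estrogen, a difference of -1.68 ± 0.317 (SE, n = 3 per group; limma adjusted p = 0.00602). With 1 call of 43, both counts are near the shares over all tested genes and describe Rrm2 alone. Both interactions use the same oocyte-free arrays. A second probe set of Rrm2 gave 1.35 (not called) and -1.83 (called), and the remaining one 0.14 and -0.48 (neither called), so its 3 probe sets differ in size. The removal interaction of Rrm2 was not called when intact replicate 2 or 3 without estrogen, intact replicate 1 or 2 with estrogen, or the array of conflicting labels was left out, at adjusted p-values up to 0.870 over all alternatives, and its value lay between 0.76 and 1.55. The other 42 were not called; Prim1 had 1.15 and -1.27, and Mcm5 1.05 and -0.68, as differences (limma adjusted p from 0.07 to 0.331, n = 3 per group).

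Most other genes of replication fell too. The list of these genes and those of nucleotide metabolism and S phase control were chosen with earlier results of these data known. Their counts are therefore not an independent check of the fall. Of 38 tested genes of initiation, fork and chromatin that are not members, 26 fell and 1 rose on oocyte removal without estrogen, with a median of -0.84, where 20.7% of all tested genes were called lower. With estrogen 26 fell and 1 rose, with a median of -0.96, against 17.3% of all tested genes. Without estrogen, Uhrf1, which links replication to DNA methylation, had 8.87, 9.14 and 9.05 in intact and 5.43, 5.20 and 5.07 in oocyte-free complexes. All 3 oocyte-free values lay below their array median, and the fitted fall was 13.8-fold. Top2a, which untangles DNA, fell 6.85-fold and Tipin, a fork protection gene, 5.67-fold. Top1, the other topoisomerase of the list, rose 1.80-fold. On adding oocytes 22 of the 38 rose without estrogen and 20 with it, against 19.8% and 14.2% of all tested genes, and 0 fell.

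Of 29 other nucleotide metabolism genes, 17 fell and 1 rose on removal without estrogen, with a median of -0.67, and 12 fell and 0 rose with it, with a median of -0.60 (20.7% and 17.3% of all tested genes were called lower). Without estrogen the 3 largest fitted falls were in the folate-linked one-carbon pathway: the mitochondrial enzymes Mthfd2 and Shmt2 fell 7.53-fold and 7.13-fold, and the cytosolic enzyme Shmt1 4.12-fold. Cmpk1, a kinase of pyrimidine nucleotides, rose 2.08-fold. On adding oocytes 16 of the 29 rose without and 11 with estrogen (19.8% and 14.2% of all tested genes), and 0 fell.

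Of 23 genes that control S phase, 16 fell and 1 rose on removal without estrogen, with a median of -0.87, and 12 fell and 1 rose with it, with a median of -0.63 (20.7% and 17.3% of all tested genes were called lower). Without estrogen Ccna2, which encodes cyclin A2, fell 8.38-fold, the repressor E2F gene E2f7 6.44-fold and Fbxo5, an inhibitor of the anaphase-promoting complex, 5.62-fold. Tfdp2, which encodes a dimer partner of E2F proteins, rose 2.06-fold, and it fell by 1.27 on adding oocytes. On that addition 17 of the 23 rose and 1 fell without estrogen, and 11 rose and 1 fell with it (19.8% and 14.2% of all tested genes were called higher). The words of the promoter search lay in 32.4% of the other replication genes with a listed promoter, in 7.41% of the nucleotide genes and in 41.2% of the S phase control genes.

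**Figure D5:**
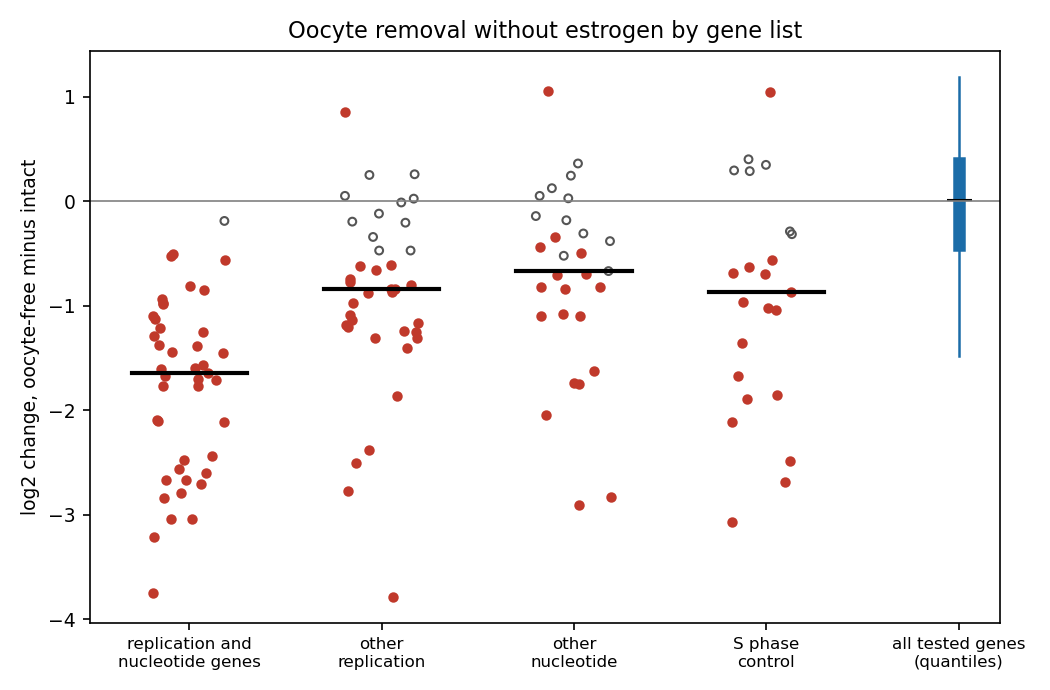
Points are log2 changes on oocyte removal without estrogen for the 43 genes and for the lists of other replication (38), other nucleotide (29) and S phase control (23) genes; red fill marks called genes, black lines the medians, and the blue bar at the right the middle 50% (thick) and 90% (thin) of all tested genes. Medians lie at -1.65, -0.84, -0.67 and -0.87, and each list other than the 43 has 1 gene called higher.

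Marker genes of cumulus and other cells moved with some of these comparisons. The summed level of 20 oocyte markers, on the linear scale, was 748 to 830 in intact, 749 to 978 in oocyte-free and 755 to 1136 in coculture samples without estrogen, ranges that overlap. With estrogen it was 731 to 749, 663 to 745 and 662 to 793. None of the 5 tested oocyte markers was called on removal or addition. Coculture replicate 2 without estrogen gave the highest sum, with Ooep at 7.46 and Nlrp5 at 6.40. The 12 granulosa and cumulus markers summed to 24551 to 27401 in intact, 14250 to 17726 in oocyte-free and 24617 to 28075 in coculture samples without estrogen, and to 31866 to 35640, 17547 to 21720 and 31888 to 35973 with it. On the linear scale these sums weigh the brightest genes most, which were Inha and Fst on the intact arrays. Without estrogen Inha had 13.27, 13.48 and 13.40 in intact and 12.74, 12.48 and 11.97 in oocyte-free samples. Fst had 12.71, 12.92 and 12.95 against 10.08, 9.43 and 9.14. On removal without estrogen 6 of the 12 granulosa and cumulus markers fell and 4 rose. Among the 4 was Foxl2, a granulosa transcription factor gene, at 1.03. The 10 theca and stroma markers summed to 4519 to 5263, 1874 to 2708 and 4875 to 7040 without and to 868 to 953, 3047 to 5025 and 1258 to 1826 with estrogen. The genes of this list moved apart. Of the 10, Col1a1, Col1a2, Col3a1 and Lum exceeded the median of no array. On removal Gli1 changed by -1.68 and Ptch1 by -1.22 without estrogen, and by -0.34 (not called) and 1.02 with it. Pdgfra was not called in either medium. Acta2, a smooth muscle actin gene, had 11.92, 11.74 and 11.94 in intact and 9.73, 9.64 and 10.51 in oocyte-free samples without estrogen, and it changed on removal by -1.91 without and 2.98 with estrogen. Dcn, the stromal proteoglycan gene decorin, had 4.69, 4.54 and 4.57 in intact and 9.05, 9.03 and 9.15 in oocyte-free samples without estrogen. With estrogen it had 4.51, 4.66 and 4.49 against 7.47, 7.74 and 8.61. Dcn rose by 4.48 and 3.39 on removal and changed by -4.32 and -3.46 on adding oocytes (without and with estrogen), opposite to the called replication genes in both media. The sum of the 9 endothelial and blood markers lay between 208 and 291 on every array. The part of these markers in the results was not tested.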

How the data were processed

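RNA of 18 samples was measured on Affymetrix mouse arrays. Per the submitters' processing notes, the authors made the deposited log2 expression values with RMA, using version 1.1 of Affymetrix Expression Console. RMA corrects the background, equalises the distribution of values across arrays and summarises each probe set. A shift of most transcripts in 1 direction is therefore not visible, and folds of dim transcripts are understated. Of 45101 probe sets, 34945 carried 1 gene symbol, 932 carried several and were left out, 9160 had none listed and 64 were controls. Symbols were updated through a RefSeq table. A gene was represented by its probe set with the highest mean over all arrays. It was tested if that probe set exceeded the array median on at least 3 of the 18 arrays, which left 12246 of 18193 genes.

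Group means of the 6 groups were fitted, with 11 contrasts, by lmFit and eBayes of limma 3.58.1 (R 4.3.3). P-values are two-sided, adjusted by Benjamini-Hochberg over the 12246 genes, and those under an adjusted p of 0.05 count as called. Precision is limited by the number of arrays. The test script was tested on simulated data.

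The replication genes, the comparison lists and the marker lists were chosen with earlier results of these data known. The named genes are, in each role, the members with the largest and the smallest change on oocyte removal without estrogen, members that were not called there or that were called in an interaction, and the 3 largest called falls and rises of each comparison list. Orc2, Cdc45, Mcm2, Fen1, Pole, Pola1, Gins2, Mcm10 and further members were chosen after their values were seen. Alternatives to the filter, probe set, normalization, array series, replicate block and sample set were run. Chip image files were not used here.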

Additional observations from a re-analysis of the deposited data

Results flagged for a closer look

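Rrm2, the small ribonucleotide reductase subunit, was picked out because its response to oocyte removal differed between cultures without and with estrogen, by 1.34 on the log2 scale (limma interaction, adjusted p = 0.0241, n = 3 per group). Its response to added oocytes also differed, by -1.68 (limma interaction, adjusted p = 0.00602, n = 3 per group). Among the S phase control genes, Rb1, which encodes the retinoblastoma protein, was picked out by the same kind of difference on adding oocytes, at -0.91 ± 0.228 (SE; limma interaction, adjusted p = 0.039, n = 3 per group). Rb1 stood at 7.02, 6.92 and 7.03 in oocyte-free and 8.10, 7.79 and 8.41 in coculture samples without estrogen, and at 7.41, 7.43 and 7.31 and 7.66, 7.43 and 7.67 with it. All 3 comparisons rest on the same 6 oocyte-free arrays, including the array of conflicting labels. With that array placed in the group without estrogen the Rrm2 differences were not called. The removal difference of Rrm2 was also not called in its other probe sets. Leaving out any 1 of several single arrays lost that call too.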

How the results depend on the processing

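The number of genes called among the 43 was little changed on removing and adding oocytes: leaving out 1 array at a time gave 40 to 42 and 39 to 42 on removal (without and with estrogen) and 35 to 40 and 32 to 39 on addition. With a replicate block the counts were 42, 42, 39 and 35, and with the array series as a term 39, 41, 37 and 38. Deviations from the group means correlated over 0.1 in 14 of 45 pairs of same-numbered samples and in 31 of 90 other pairs between groups. No pairing by number was seen. With 3 arrays a group and array series that cross the numbers, this check cannot exclude it. The block moved no count by over 1.5 times. Small counts moved more, and the cause was not tested. Coculture against intact kept 0 calls with each array left out, and array weights gave 1 without and 2 with estrogen. For estrogen in intact complexes the count was 1, not 0, after a second quantile normalization, with the series term, in series 1 alone, in the compared groups alone, with array weights and without the 2 arrays of series 2, an alternative chosen after seeing the data. In cocultures it was 1 under the same settings other than the compared groups alone, and 2 with array weights, and leaving out 1 array gave 0 to 1, with 1 without oocyte-free replicate 3 of either medium. In oocyte-free complexes the 4 calls became 1 with the series term, in the compared groups alone or without the array of conflicting labels, 0 with that array placed without estrogen, and 8 with array weights. Leaving out 1 array gave 1 to 9, with 9 without oocyte-free replicate 1 of the medium without estrogen, 1 without replicate 1 or 2 and 8 without replicate 3 of that with estrogen. The removal interaction had 0 calls with the mean or the most variable of a gene's probe sets and with the array of conflicting labels placed without estrogen or left out, and 3 with array weights. Leaving out 1 array gave 0 to 5 (2 without oocyte-free replicate 2 without estrogen, 5 without replicate 3 with it). The addition interaction had 6 with array weights, 0 with that array placed without estrogen, 2 without series 2, and 1 to 3 leaving out 1 array (2 and 3 without the same 2 arrays). Of 217 called results of named genes and members, 173 kept their call in each alternative run, 44 lost it in at least 1 and 0 reversed. Series 1 alone could not be run for contrasts with the oocyte-free group without estrogen. Signal near the background limits Tyms and the dim probe sets.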
